A study of Mus musculus with 15 samples.

Results

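The regions described here are p53 ChIP-seq calls found in mouse liver and lying next to a gene end. They were chosen by position and by absence from the other organs. A liver region was taken when no base of it overlapped the spleen or thymus list and a RefSeq gene of any kind started or finished no more than 1 kb from its midpoint. The rule left 1015 regions, out of 1255 that only the liver list holds and 3872 in the liver list as a whole. They made up 80.9% of the liver-only regions (exact Clopper-Pearson 95% interval 78.6 to 83.0%) and 26.2% of all liver regions. Since list membership and gene ends chose them, their number, place and score are given as a description, with no test.

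In ChIP-seq an antibody recovers a protein, here p53, with the DNA it touches, and that DNA is sequenced. The 15 libraries came from wild-type mice, and liver, spleen and thymus each gave 5. Per organ these were 2 X-ray libraries (a dose of 2 Gy, organs collected at 3 h), 2 libraries of untreated mice and 1 input library of chromatin not passed over the antibody. Strain, age, sex and antibody are not stated in the labels. Each organ has 1 deposited list that belongs to all 5 of its libraries, named for irradiation and IgG although no library carries an IgG label. There is therefore 1 measurement per organ, with 3872 regions in liver, 2604 in spleen and 2405 in thymus. Radiation, replicates and input could not be compared, since no value per library was used, and read depth is unknown. A region absent from the spleen and thymus lists is one that was not called there, and a weaker signal below the calling threshold cannot be told apart from no signal. The lists hold no expression values, so the labelled organs were not checked against marker transcripts.

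The p53 protein is a transcription factor that accumulates after DNA damage and turns on genes for cell cycle arrest, repair and cell death. It binds as a tetramer to a response element made of a pair of ten-letter half-sites. The starts of genes that nearly all cells use usually lie in CpG islands, stretches of DNA rich in G, C and the CpG dinucleotide, bound by factors such as SP1, NRF1 and the ETS family and held open in most cell types.

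The sequences of 8 of the regions show what these sites look like. They belong to the named genes with the highest liver scores whose start lies within 150 bp of the region midpoint and whose whole region falls inside an annotated promoter window, together with a pair of p53 target genes that met the same conditions. Bases are from RefSeq on GRCm38.p6, the assembly behind mm10, written 5' to 3' on the plus strand. Capitals mark matches on either strand to the GC box GGGCGG of SP and KLF factors, the NRF1 motif GCGCATG and the ETS core CCGGAAG.
Naxe, chr3:88058501-88058550: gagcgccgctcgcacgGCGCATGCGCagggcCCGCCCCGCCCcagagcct
Atp6v1f, chr6:29467601-29467750: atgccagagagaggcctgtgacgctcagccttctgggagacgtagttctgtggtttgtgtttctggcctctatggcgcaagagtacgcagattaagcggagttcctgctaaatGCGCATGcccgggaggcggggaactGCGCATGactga
Snx14, chr9:88438901-88439050: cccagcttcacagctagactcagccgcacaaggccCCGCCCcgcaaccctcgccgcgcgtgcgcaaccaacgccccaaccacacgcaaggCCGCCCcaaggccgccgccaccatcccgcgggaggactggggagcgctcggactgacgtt
Atp5c1, chr2:10080401-10080450: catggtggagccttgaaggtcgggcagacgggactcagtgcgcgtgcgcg
Polr2j, chr5:136116501-136116650: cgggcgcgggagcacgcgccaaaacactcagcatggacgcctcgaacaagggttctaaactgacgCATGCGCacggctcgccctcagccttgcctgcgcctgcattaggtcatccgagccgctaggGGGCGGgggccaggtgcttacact
Mrps26, chr2:130563701-130563750: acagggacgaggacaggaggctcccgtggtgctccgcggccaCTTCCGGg
Rchy1, chr5:91963101-91963150: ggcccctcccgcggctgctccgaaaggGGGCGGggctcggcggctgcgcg
Prkab2, chr3:97658001-97658150: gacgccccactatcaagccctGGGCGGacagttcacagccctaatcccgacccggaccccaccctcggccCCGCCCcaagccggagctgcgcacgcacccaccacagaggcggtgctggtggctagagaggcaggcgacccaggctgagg

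Naxe encodes an epimerase that repairs damaged NADH and NADPH, Atp6v1f a subunit of the vacuolar proton pump, Snx14 a sorting nexin, Atp5c1 the gamma subunit of the mitochondrial ATP synthase, Polr2j a subunit of RNA polymerase II and Mrps26 a protein of the mitochondrial ribosome. Rchy1 encodes a ubiquitin ligase that acts on p53, and Prkab2 a regulatory subunit of the AMP-activated kinase. The Naxe region is 50 bp long with a G+C content of 82.0%, and it holds the NRF1 motif on both strands as an overlapping palindrome, followed by 2 GC boxes. The Rchy1 region reaches a G+C content of 84.0% with 1 GC box, and the Atp5c1 region has none of the motifs. None of these regions holds a complete p53 half-site. Against a full p53 element of 20 letters with no spacer, the best match had 4 mismatches in the Polr2j region, 5 in that of Snx14 and 7 in each of the other 6.

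The members sat at the starts of protein-coding genes. An end of a coding gene lay within 1 kb of 965 of the 1015 (95.1%, 93.6 to 96.3%), against 271 of the 366 gene-end regions present in all 3 lists (74.0%, 69.2 to 78.5%), the closest comparable set, called 3-organ regions from here on. Where the strand of the nearest coding gene was known, that end was the start of the gene in 789 of 801 members (98.5%, 97.4 to 99.2%) and in 192 of 220 of the 3-organ regions (87.3%, 82.1 to 91.4%). Both groups thus favoured starts over finishes, the liver-only regions more often. The members also sat closer to the end itself, at a median of 63.5 bp from the nearest end of any gene, against 195.5 bp in the 3-organ regions.

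The promoter table of RefSeq gives annotated starts outside chromosome 18. Among the 989 members there, 836 had such a start within 1 kb (84.5%, 82.1 to 86.7%), against 217 of 354 of the 3-organ regions (61.3%, 56.0 to 66.4%). Within 150 bp these were 661 members (66.8%, 63.8 to 69.8%) and 126 of the 3-organ regions (35.6%, 30.6 to 40.8%). The median midpoint lay at -28.5 bp from the start in members, with quartiles of -85.75 and 15.5 bp, and at -42.5 bp in the 3-organ regions, with quartiles of -112.5 and 45.5 bp, where negative is upstream. Both medians were thus just upstream of the start, and 66.5% of members and 66.4% of 3-organ regions with a start within 1 kb lay upstream of it.

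**Figure D1:**
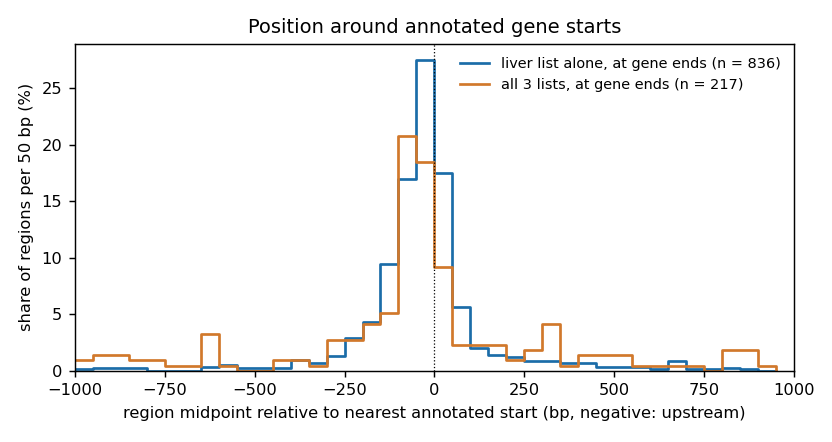
Position of region midpoints around the nearest annotated start, in steps of 50 bp, as a share of the regions with a start within 1 kb. The 836 liver-only members (blue) are densest in the 50 bp before the start, with 27.5% there, and the 217 regions of all 3 lists (orange) have 18.4% in that step and more of their share beyond 250 bp.

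Some members lay near the ends of several genes. An end of 2 or more coding genes lay within 1 kb of 208 members (20.5%, 18.05 to 23.1%), against 41 of the 366 3-organ regions (11.2%, 8.16 to 14.9%). Starts on both strands were present within 1 kb of 237 of 836 members (28.3%, 25.3 to 31.5%), against 51 of 217 3-organ regions (23.5%, 18.03 to 29.7%), and these intervals overlap. In 130 members (15.6%, 13.2 to 18.2%) the starts were those of coding genes on opposite strands, against 27 3-organ regions (12.4%, 8.36 to 17.6%). One such member lies near both Sfxn2, a mitochondrial sideroflexin gene, and Arl3, which encodes a small GTPase of cilia. Another, near both Eif2s1 and Atp6v1d with its midpoint 3.5 bp inside Eif2s1, counts in both the translation factor list and the proton pump list below. Counts of genes are therefore not counts of independent regions.

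Through these ends, 1166 of 21887 protein-coding genes (5.33%) had a member, and 1377 genes of any kind did. By the same distance 309 coding genes (1.41%) had a 3-organ region and 1953 (8.92%) any liver region. Few of these genes also had a shared region, a share that the choice itself can lower, since each gene enters through a region that spleen and thymus lack. Of the 1166 genes, 22 (1.89%, 1.19 to 2.84%) also had an end with a liver region that spleen or thymus shared, while 809 of all coding genes did (3.70%, 3.45 to 3.95%). A pair of members was found at each of 12 coding genes. Examples are Stau2, an RNA-binding protein gene with regions at score percentiles of 88.5 and 58.7, Dedd2, a death effector domain gene at 85.0 and 20.5, and Rela, which encodes the p65 subunit of NF-kB, at 68.9 and 54.98. The other genes with 2 members were Ccdc47 and Ddx42, which share theirs, Pcif1, Dnajb12, Gpr19, Ccdc130, Msl2, Lcor and 4930467E23Rik.

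The members took middle ranks in the liver list. The score is the authors' own value with no stated scale, so it is read mainly as a percentile of the 3872 liver regions, ties averaged. Members ran from a score of 7.02 to 33.9 with a median of 20.8 and quartiles of 16.3 and 25.1, which put the median member at percentile 49.1. The 366 3-organ regions had a median score of 23.8 (percentile 63.9) and reached 51.8, the highest value in the liver list. The 240 liver-only regions away from gene ends had a median of 19.9 (percentile 43.9) and reached 34.4. Scores were shared between regions, with 860 distinct values among the 1015 members.

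**Figure D2:**
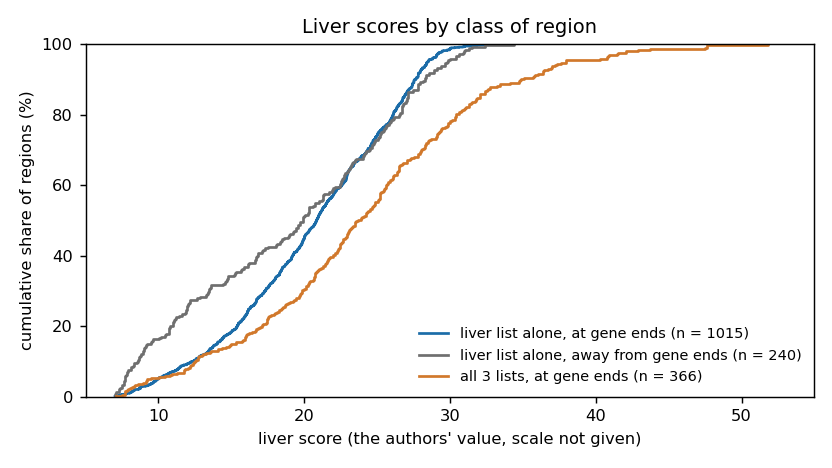
Cumulative share of regions against the liver score for liver-only regions at gene ends (blue, n = 1015), liver-only regions away from them (grey, n = 240) and gene-end regions of all 3 lists (orange, n = 366). The liver-only curves end at 33.9 and 34.4, while the curve of the regions of all 3 lists reaches 51.8.

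Members were nearly missing from the top of the list. Only 23 of the 1015 (2.27%, 1.44 to 3.38%) were in the upper 10% of liver scores, against 87 of the 366 3-organ regions (23.8%, 19.5 to 28.5%). Seen from the ranking, members made up 20.9% (17.0 to 25.3%) of the liver regions in the lowest 10% of scores and 25.3% in the next 10%. From percentile 20 to 90 they held between 27.9 and 31.2% of each step of 10%, and in the highest 10% their share was 5.94% (3.80 to 8.78%). The share of 3-organ regions was 6.46% in the lowest 10% and 22.5% in the highest. List membership and score come from the same calls, so this order is a description only.

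**Figure D3:**
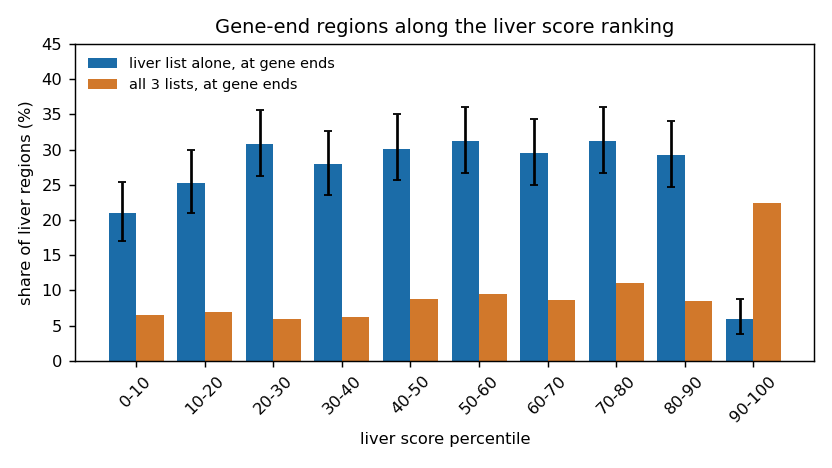
Share of the liver regions in each 10% step of the score ranking that are liver-only regions at gene ends (blue, with exact 95% intervals) or gene-end regions of all 3 lists (orange). The blue bars stay near 30% between percentiles 20 and 90 and stand at 5.94% in the top 10%, where the orange bar stands at 22.5%.

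The members were narrower than the 3-organ regions, as were the other liver-only regions. Region bounds fall on a 50 bp grid, and 348 members (34.3%, 31.4 to 37.3%) were 50 bp wide, 363 (35.8%) 150 bp and 223 (22.0%) 250 bp, which leaves 81 (7.98%, 6.39 to 9.82%) above 250 bp. Of the 3-organ regions 11.5% were 50 bp wide and 43.4% (38.3 to 48.7%) above 250 bp. The median width was 150 bp in members and 250 bp in 3-organ regions. Score and width moved together among members, with a median percentile of 39.2 at 50 bp, 48.5 at 150 bp and 61.0 at 250 bp. The 130 members with coding starts on opposite strands within 1 kb had a median percentile of 54.6. The 12 whose nearest coding end was the finish of the gene had 18.7. The rule leaves out any overlap with the other lists, so a gap to them was fixed in advance. The gap from a member to the nearest spleen or thymus region was at least 350 bp, with a median of 147150 bp. It was under 1 kb for 18 members, and it was not computed for a comparison set.

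Distances ran on across the 1 kb limit. Just inside it, the members farthest from a gene end were at Hnrnpa1, a gene of an RNA-binding protein of pre-mRNA (982.5 bp, percentile 47.1), Gm36584, a long noncoding RNA (970.5 bp, 81.3), and Ccna2, which encodes cyclin A2 (962.5 bp, 50.8). Just outside it lay liver-only regions near Malat1, a nuclear long noncoding RNA (1003.5 bp, 52.1), Ireb2, an iron regulatory protein gene (1017.5 bp, 84.7), and Cbarp (1070.5 bp, 74.7).

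The 20 members of highest score ran from percentile 90.4 to 96.7. The highest, with a score of 33.9, was at the start of the long noncoding RNA Gm40561 (chromosome 12, 104404001 to 104404250). Next came Bbs2, which encodes a subunit of the BBSome complex of cilia (chromosome 8, 94098401 to 94098650, score 32.5, percentile 95.8), and Adamts4, a secreted metalloprotease gene (chromosome 1, 171263001 to 171263250, score 32.1, percentile 95.2). Naxe and Fxyd1, the gene of a regulator of the sodium pump, tied at percentile 94.6. The Bbs2 midpoint was 16.5 bp upstream of an annotated start, while that of Adamts4 lay 858.5 bp outside the gene with no annotated start within 1 kb. None of these is among the classical p53 targets listed here.

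The other members among the 20 lay at genes of varied roles. Usp10, at percentile 93.5, encodes a deubiquitinase known to act on p53. Tia1 (91.6) encodes an RNA-binding protein of stress granules, Copg1 (91.6) a coat protein of vesicles leaving the Golgi, Nup50 (91.5) a nucleoporin and Coq2 (91.8) an enzyme of coenzyme Q synthesis. Selenoi (90.4) encodes an enzyme of phospholipid synthesis that contains selenocysteine, and Spry4 (91.5) an inhibitor of receptor tyrosine kinase signalling. Zfp324 (93.7), Bahcc1 (93.2), Gmcl1 (92.0), Phf3 (91.5), Garem1 (91.1) and Lrch3 (91.1) complete the coding genes, beside Sfxn2 with Arl3 (93.4). The remaining member was next to n-TRccg1, an arginine tRNA gene (92.5). The regions at Naxe, Fxyd1, Spry4, Garem1 and Lrch3 were only 50 bp wide.

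Known p53 targets had members at a share near that of all coding genes. Of the 86 coding genes in 5 lists of p53 targets, 6 had a member (6.98%, beside 5.33% of all coding genes), against 24 with a 3-organ region (27.9%), where the share over all coding genes was 1.41%. By list these were 1 of 16 genes of p53 regulation, 1 of 15 of cell cycle arrest, 1 of 14 of DNA repair, 3 of 23 of metabolism and redox, and 0 of 18 of apoptosis (upper bound 18.5%). The corresponding counts with a 3-organ region were 7, 7, 2, 2 and 6.

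Sesn1, which encodes a sestrin that restrains mTORC1, had the highest of the 6, at a score of 28.1 and percentile 85.3 (chromosome 10, 41809801 to 41810050). Its end was 648.5 bp from the midpoint, and with gene ends within 500 bp the cell cycle list had 0 genes with a member. The same region is also at Cep57l1. It holds a full p53 element with 3 mismatches, 173 bp upstream of an annotated start of Cep57l1, so the region cannot be assigned to Sesn1 alone. The Rchy1 region printed above ranked at 63.4 and also lies within 1 kb of Thap6. Rev3l, the catalytic subunit gene of the translesion polymerase zeta, ranked at 40.3, and Prkab2 at 31.7. The remaining pair were low, with Aldh4a1, a proline catabolism gene, at 24.9 and Gdf15, a stress-induced secreted factor, at 5.86. Of the 6, Rchy1 also had a region shared with another organ within 5 kb, at percentile 34.7, and the other 5 genes had none.

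Lists of cellular machinery were counted in the same way. In RNA processing, 11 of 48 splicing genes had one (22.9%, 12.03 to 37.3%), against the 5.33% of all coding genes. Snrpd2, a core protein of the spliceosomal snRNPs, ranked at 69.2, Sf3a2, a subunit of a U2 snRNP factor, at 61.7 and Prpf39 at 53.8, and the median over the list was 35.5, below the 49.8 of the 965 members at coding genes. The transcription machinery had 14 of 105 (13.3%, 7.49 to 21.4%, median 51.3), led by Taf1a, a subunit of the RNA polymerase I factor SL1, at 88.2 and the RNA polymerase subunit genes Polr2j at 83.8 and Polr2h at 82.9. Nuclear pore and transport genes had 5 of 41 (12.2%), and RNA helicases 4 of 53 (7.55%, 2.09 to 18.2%), with Ddx42 at 74.1, Ddx41 at 41.9 and Ddx39b at 39.7. Histone modifiers had 10 of 68 (14.7%, 7.28 to 25.4%, median 37.8), led by the histone demethylase genes Kdm3a at 81.5 and Kdm8 at 62.2 and the methyltransferase gene Kmt2c at 70.1.

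In protein synthesis and folding the shares differed between lists. Translation factors had 13 of 70 (18.6%, 10.3 to 29.7%, median 53.3), with Eif3k, a subunit of the initiation factor that organises the small ribosomal subunit, at 86.4, Eif5a at 84.9 and Eif2s1, the subunit of initiation factor eIF2 that stress kinases phosphorylate, at 74.9. Cytosolic ribosomal proteins had 10 of 86 (11.6%, 5.72 to 20.3%, median 36.1), among them Rpl22l1 at 49.5. Genes of the mitochondrial ribosome had 3 of 75 (4%, 0.833 to 11.2%), with Mrps26 at 81.6, Mrpl14 at 54.5 and Mrps9 at 26.5. Chaperones had 11 of 85 (12.9%, 6.64 to 22.0%, median 63.7), led by Hspa8, the constitutive Hsp70 gene, at 89.6, with Hspa12a at 86.6 and the chaperonin subunit gene Cct3 at 77.5.

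Lists of energy metabolism, traffic and turnover ranged from 4.17 to 23.1%. Respiratory chain genes had 13 of 105 (12.4%, 6.76 to 20.2%, median 49.0), among them Atp5c1 at 84.7, the succinate dehydrogenase subunit gene Sdhd at 79.0 and the complex I subunit gene Ndufa8 at 74.5. The vacuolar proton pump, which acidifies lysosomes, had 6 of 26 (23.1%, 8.97 to 43.6%, median 68.7), all of them in the V1 sector that faces the cytosol, from Atp6v1f at 87.3, Atp6v1a at 75.2 and Atp6v1d at 74.9 down to Atp6v1e1 at 23.7. Vesicle traffic had 21 of 215 (9.77%, 6.15 to 14.5%), led by Copg1, Trappc13 at 85.9 and Snx14 at 85.5. Autophagy and lysosome genes had 5 of 37 (13.5%, 4.54 to 28.8%), with the kinase gene Ulk2 at 75.9, Atg5, which acts in autophagosome growth, at 70.0 and Atg10 at 42.8. Genes of ubiquitin conjugation and removal had 22 of 179 (12.3%, 7.87 to 18.02%), led by Usp10, Ube2e3 at 88.9 and Usp12 at 80.6, while the proteasome itself had 2 of 48 (4.17%), Psmc4 at 59.6 and Psma4 at 43.5.

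Lists of genome maintenance and cell division followed. DNA damage response and repair had 8 of 50 (16.0%, 7.17 to 29.1%, median 42.6). Tdp1, which frees DNA ends from trapped topoisomerase, ranked at 84.6, the single-strand break repair gene Xrcc1 at 71.2 and the recombination gene Xrcc2 at 69.1. Atm, the kinase gene upstream of p53, had a member at 36.2. The regions at Tdp1, Xrcc1 and Atm are also at Efcab11, Pinlyp and Npat, so they cannot be assigned to the repair genes alone. Cell cycle machinery had 10 of 89 (11.2%, 5.52 to 19.7%), led by Cdc5l at 88.5, Anapc16 at 78.4 and the replication kinase gene Cdc7 at 73.2. These genes were counted through their symbols, and a symbol such as Cdc5l does not by itself show a role in cell division. Protein phosphatase subunits had 8 of 77 (10.4%), with Ppp2r2d at 81.5, Ppp4r3a at 69.1 and the catalytic subunit gene Ppp2ca at 67.4. MAP kinases and dual-specificity phosphatases had 5 of 67 (7.46%), led by Map4k1 at 86.4, whose region is the one counted for Eif3k. The 465 zinc finger factors had 30 (6.45%, 4.39 to 9.08%), a share near that of all coding genes.

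Lists of liver function had few members, and the intervals of the first pair include the 5.33% of all coding genes. Of 35 hepatocyte identity genes 0 had a member (upper bound 10.003%), and of 30 genes of hepatic lipid and bile metabolism 1 did (3.33%, 0.0844 to 17.2%), the fatty acid synthase gene Fasn, at percentile 5.33 and 940.5 bp from the gene end. Among 144 xenobiotic enzymes 1 had a member (0.694%, 0.0176 to 3.81%), Cyp20a1 at 80.0. That share is below 5.33% by its interval, but among genes with a CpG-rich promoter it was 1 of 13 (7.69%, 0.195 to 36.0%), and lipid and bile genes had 1 of 9 (11.1%, 0.281 to 48.2%). Solute carriers had 15 of 375 (4%, 2.26 to 6.51%), led by Slc23a3 at 88.9, Slc25a16 at 84.9 and Slc35b3 at 79.8. Olfactory and vomeronasal receptors had 0 of 1465 (upper bound 0.251%) and keratins 0 of 112 (upper bound 3.24%), both below 5.33%. Few of these genes had a CpG-rich promoter, and among those the receptors had 0 of 1 and keratins 0 of 4. The upper bounds there were 97.5 and 60.2%, so a low share at like promoters cannot be read from them. T cell genes had 0 of 26, B cell genes 0 of 19 and neuronal genes 0 of 30, with upper bounds of 13.2, 17.6 and 11.6% that include 5.33%. Myeloid and erythroid genes had 1 of 24 (4.17%, 0.105 to 21.1%), the transferrin receptor gene Tfrc at 81.5. Cytokines and chemokines had 2 of 137 (1.46%, 0.177 to 5.17%), below 5.33%, but 2 of 18 among CpG-rich genes (11.1%, 1.38 to 34.7%). These were the chemokine receptor gene Cxcr4 at 14.0 and Il4i1b, an amino acid oxidase gene counted through its symbol. Il4i1b ranked at 80.9, in a region also near Nup62 and Atf5.

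Small regulatory lists had 2 or 3 members each, with intervals that all include the 5.33% of all coding genes. Circadian genes had 3 of 19 (15.8%, 3.38 to 39.6%), the repressor genes Nr1d1 at 63.4 and Nr1d2 at 50.9 and the period gene Per1 at 35.5. Acute phase and stress genes had 3 of 33 (9.09%, 1.92 to 24.3%), Atf5 at 80.9, the heat shock factor gene Hsf1 at 48.3 and Nfe2l2, the gene of the antioxidant regulator NRF2, at 13.7. The NF-kB and interferon list had 2 of 23 (8.70%, 1.07 to 28.04%), Rela at 68.9 and the inhibitor gene Nfkbia at 26.1, and immediate early genes 2 of 26 (7.69%, 0.946 to 25.1%), Fosb at 16.6 and Jund at 7.67.

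The lists differ in their share of genes with CpG-rich promoters, so the counts were also read among such genes alone, which was decided once the values were known. A promoter was called CpG-rich at a G+C content of at least 50% and a CpG count of at least 0.6 times that expected from its C and G. Of 8452 coding genes with such a promoter 881 had a member (10.4%), and of 9040 with other promoters 89 did (0.985%). Among CpG-rich genes alone, splicing had 10 of 39 (25.6%, 13.0 to 42.1%), histone modifiers 10 of 48 (20.8%, 10.5 to 35.0%), the respiratory chain 13 of 66 (19.7%, 10.9 to 31.3%) and ubiquitin genes 17 of 96 (17.7%, 10.7 to 26.8%). These 4 intervals start above 10.4%, those of the histone modifiers and the ubiquitin genes only just. With 40 lists read and no allowance made for their number, this is a description and not a test. For translation factors (8 of 45, 17.8%, 8.002 to 32.1%), the transcription machinery (13 of 78, 16.7%, 9.18 to 26.8%), chaperones (10 of 54, 18.5%, 9.25 to 31.4%) and DNA damage response and repair (5 of 33, 15.2%, 5.11 to 31.9%) the interval included it. It was also within the wide interval of the vacuolar proton pump (3 of 11, 27.3%, 6.02 to 61.0%) and those of ribosomal proteins (8 of 52, 15.4%, 6.88 to 28.1%), mitochondrial ribosomal proteins (2 of 53, 3.77%, 0.460 to 13.0%) and solute carriers (10 of 143, 6.99%, 3.404 to 12.5%).

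**Figure D4:**
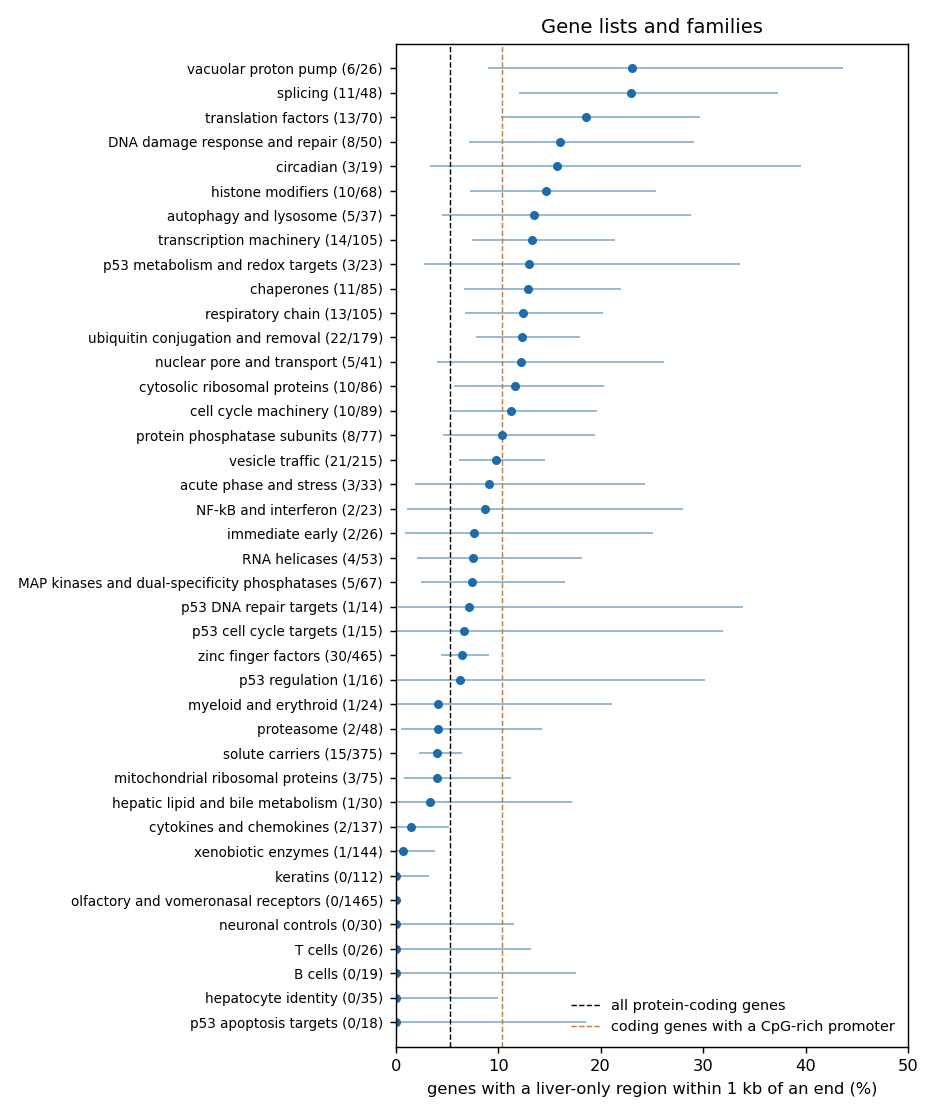
Share of each gene list or symbol family with a liver-only region within 1 kb of a gene end, with exact 95% intervals and the counts in brackets. The dashed lines are the share of all coding genes (black, 5.33%) and of coding genes with a CpG-rich promoter (orange, 10.4%); the vacuolar proton pump, splicing and translation factors stand at the top and 7 lists stand at 0.

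Noncoding genes supplied few members by themselves. Only noncoding ends lay within 1 kb of 50 members (4.93%, 3.68 to 6.44%), against 95 of the 366 3-organ regions (26.0%, 21.5 to 30.8%). By the nearest gene these 50 were 39 long noncoding RNAs, 4 tRNAs, 3 pseudogenes, 2 miscellaneous RNAs, 1 scRNA and 1 transcribed pseudogene, with a median percentile of 51.0. Counting every noncoding gene within 1 kb, 9 of 408 tRNA genes had a member (2.21%), as did 9 of 1228 miRNA genes (0.733%), 170 of 12727 long noncoding RNA genes (1.34%), 5 of 1340 snoRNA genes, 8 of 9944 pseudogenes and 0 of 1004 snRNA genes. Each of these shares was below the 5.33% of coding genes.

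Members were also scarce on the X chromosome. It held 2 of the 1015 (0.197%, 0.0239 to 0.710%), at the sorting nexin gene Snx12 (percentile 21.7) and the kinetochore gene Cenpi (83.8), against 5 of 366 3-organ regions (1.37%, 0.445 to 3.16%). The chromosome carries 51 of the 3872 liver regions (1.32%) and 966 of the 21887 coding genes (4.41%). The sex of the mice is not stated.

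The promoters beside members were G+C-rich. RefSeq promoter windows, which run from 250 bp before to 50 bp after a start, were available for 1245 starts within 1 kb of a member, for 304 within 1 kb of a 3-organ region, and for 32851 starts in all. Median G+C content was 66.0% in members, 63.8% in 3-organ regions and 52.7% in all promoters, and the ratio of observed to expected CpG was 0.896, 0.888 and 0.384. CpG-rich promoters were 91.0% (89.3 to 92.5%) of members, 80.3% (75.3 to 84.6%) of 3-organ promoters and 33.5% of all promoters. Several of these windows overlap where starts are close, so they are not independent.

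Among motifs of other factors, that of NRF1 departed most from the promoters of like composition. It was found on either strand in 264 of the 1245 promoters of members (21.2%, 19.0 to 23.6%) and in 64 of 304 3-organ promoters (21.1%, 16.6 to 26.1%), against 3.91% of all promoters. Among CpG-rich promoters alone the shares were 21.9% (19.5 to 24.4%) in members, 26.2% (20.8 to 32.2%) in 3-organ promoters and 8.35% (7.84 to 8.88%) in all. Members and 3-organ regions thus had intervals that overlap, both above the share of CpG-rich promoters. The ETS core was found in 23.1% of members, 17.8% of 3-organ promoters and 8.86% of all promoters, and among CpG-rich promoters in 24.4% (22.0 to 27.1%), 19.3% (14.5 to 24.8%) and 19.2% (18.5 to 19.9%). The GC box was in 75.3% of members, 66.1% of 3-organ promoters and 35.7% of all promoters, and among CpG-rich promoters in 79.6% (77.1 to 81.9%), 75% (69.1 to 80.3%) and 75.8% (74.9 to 76.6%).

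The CCAAT box was less frequent beside members than in CpG-rich promoters. The CCAAT box of NF-Y, searched as CCAAT, was in 28.6% (26.1 to 31.2%) of members, 33.9% (28.6 to 39.5%) of 3-organ promoters, 35.3% of CpG-rich promoters and 37.4% of all promoters. The TATA box TATAAA was in 4.34% of members, 6.58% of 3-organ promoters, 4.57% of CpG-rich promoters and 13.6% of all. The half-site AAAGTCCA of hepatic nuclear receptors was in 6 promoters of members (0.482%), 0.987% of 3-organ promoters, 0.491% of CpG-rich promoters and 1.25% of all. The E-box CACGTG, the YY1 core AAGATGG, the palindrome TCGCGA, the CRE TGACGTCA and the AP-1 site TGANTCA were found in 10.4, 7.95, 7.79, 3.86 and 3.29% of members, against 11.5, 6.89, 6.52, 3.71 and 3.22% of CpG-rich promoters. Among CpG-rich promoters alone the palindrome was in 8.56% (6.997 to 10.3%) of members.

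The intervals resolved no difference in the p53 motif between members and promoters of the same composition. A p53 half-site, the ten-letter consensus with no mismatch on either strand, was found in 69 promoters of members (5.54%, 4.34 to 6.96%), against 43 of the 3-organ promoters (14.1%, 10.4 to 18.6%), 8.36% of all promoters and 5.65% of CpG-rich promoters. A full site, a pair of half-sites with no spacer and at most 3 mismatches in 20 letters, was found in 4.58% (3.49 to 5.89%) of members, 14.1% (10.4 to 18.6%) of 3-organ promoters, 6.29% of all promoters and 4.02% of CpG-rich promoters. Among CpG-rich promoters alone the full site was in 4.50% (3.37 to 5.88%) of members and 11.5% of 3-organ promoters. The share of members was slightly above the 4.02% (3.66 to 4.40%) of all CpG-rich promoters, with intervals that overlap. Half-sites within a full site are counted in both shares, and elements with a spacer or more mismatches were not searched for.

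**Figure D5:**
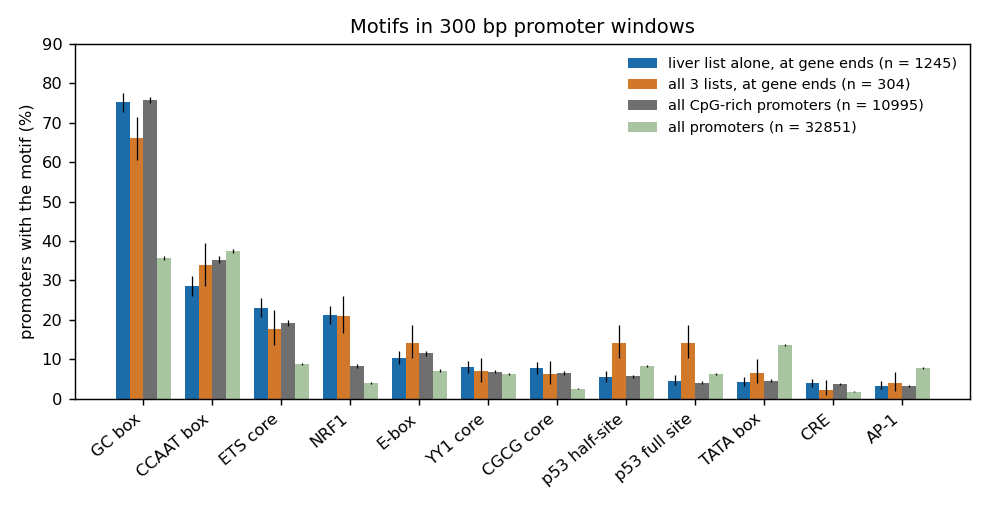
Share of 300 bp promoter windows with each motif on either strand, for starts beside liver-only regions (blue, n = 1245), beside regions of all 3 lists (orange, n = 304), for all CpG-rich promoters (grey) and for all promoters (green), with exact 95% intervals. Blue and orange both stand near 21% for NRF1, while for the p53 half-site blue is at 5.54% and orange at 14.1%.

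Site by site the contrast was of the same kind. Over the promoters of members there were 49 distinct full sites with up to 3 mismatches, of which 0 had no mismatch, 0 had 1, 8 had 2 and 41 had 3. Of those with 2 mismatches 4 lay inside the called region, and of those with 3, 12 did. The 3-organ promoters, fewer in number, held 2 sites with no mismatch, 4 with 1, 10 with 2 and 21 with 3, and 26 of these 37 lay inside the region. The 3-organ regions were also wider (43.4% above 250 bp, against 7.98% of members), which these counts do not allow for. The sites of Bbs2 and Ppp2ca are 2 of the 4 sites with 2 mismatches inside a member, shown because both genes are named above. For the 3-organ regions, the 3 sites with 1 mismatch inside a region are shown. They belong to Cdkn1a, the gene of the p21 cell cycle inhibitor, Ccng1, which encodes cyclin G1, and Gtse1, a p53 regulator gene. Both choices are among the closest matches of their group and are not typical of it. The sites are written on the strand of the gene, with capitals for letters that fit the p53 consensus and lower case for those that depart from it.
Bbs2, chr8:94098567-94098586: GAGCTAGTTgGGACTTGCgT
Ppp2ca, chr11:52098614-52098633: GcGCTTGCTCGGACTcGCTT
Cdkn1a, chr17:29090928-29090947: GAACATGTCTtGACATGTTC
Ccng1, chr11:40755462-40755481: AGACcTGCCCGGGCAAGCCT
Gtse1, chr15:85859945-85859964: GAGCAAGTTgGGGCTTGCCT

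The Bbs2 and Ppp2ca sites had 2 mismatches each and the sites of Cdkn1a, Ccng1 and Gtse1 had 1 each. The regions around them ranked at 95.8 for Bbs2 and 67.4 for Ppp2ca, and at 99.1 for Cdkn1a, 99.6 for Ccng1 and 56.4 for Gtse1.

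The motifs were also counted within the regions rather than the whole promoter. Of the members, 392 lay wholly inside a promoter window and could be read in full, 41300 bases in all, against 39 of the 3-organ regions with 5650 bases. The NRF1 motif occurred 117 times in those members, or 2.83 per kb, against 2.30 per kb in the 3-organ regions and 0.179 per kb over all promoters. The ETS core was at 1.26 per kb in members and 1.24 in 3-organ regions. The CCAAT box was at 1.11 and 0.885 (46 and 5 matches) and the E-box at 0.484 and 0.354 (20 and 2 matches). For these 2 motifs the order of the groups was the opposite of that over promoters, but the matches in 3-organ regions are too few to set an order. GC boxes were at 8.18 per kb in members, 4.96 in 3-organ regions and 2.55 over all promoters. Complete p53 half-sites occurred 3 times in the members (0.0726 per kb), in the regions of Birc5, Ano6 and Zscan29, and 2 times in the 3-organ regions (0.354 per kb), against 0.292 per kb over all promoters. Regions read in full are narrow ones close to a start, so this is not a sample of all members. A motif match is a description of the sequence and does not show that a factor was bound.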

How the data were processed

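Per the labels, p53 ChIP-seq was run on liver, spleen and thymus from wild-type mice. The authors deposited 1 headerless region list per organ, with bounds on a 50 bp grid and 1 score per region as deposited; not given in the sources used here are the scale of the score, the region caller and its settings, the aligner and any pooling or subtraction of libraries. Per the submitters' processing notes the genome build is mm10. Read depth is unknown, so only the number of regions sets the precision.

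Lists were intersected at 1 bp, and midpoints were measured to the ends of 49943 RefSeq genes of GRCm38.p6, 21887 of them protein-coding. Strand, starts and sequence came from RefSeq promoter windows, which hold 17492 of the 21376 coding genes outside chromosome 18 and none on it; no genome sequence was used. Score percentiles are ranks within the liver list with ties averaged. Exact Clopper-Pearson 95% intervals cover counting error over regions or genes only, and with 1 list per organ no test was run. Motifs were searched on both strands, overlaps counted, with placing and matching checked on simulated data.

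Named genes are the 20 members of highest score, the 3 highest of each list, p53 targets with a member, the regions beside the 1 kb limit and genes with 2 members; a few genes that the rule names are not reported here. Others (Atm, Atp6v1e1, Birc5, Ano6, Zscan29, Ccng1, Gtse1, Cdkn1a, Snx12 and Cenpi) were chosen after their values were seen. The members, gene lists and symbol families were chosen with earlier results of these data known. The printing of regions that lie wholly inside a promoter window, and the readings among CpG-rich promoters, were added after the files were seen. Alternatives changed the distance, the genes counted, the meaning of absence, the placing, the score threshold, the list length and the promoters counted. Python 3.11.15, numpy 2.4.6, pandas 2.3.3, scipy 1.17.1 and matplotlib 3.10.9 were used.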

Additional observations from a re-analysis of the deposited data

How the results depend on the processing

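The 1015 regions became 938 with gene ends within 500 bp, 1081 within 2 kb and 1144 within 5 kb, 965 with protein-coding genes only, 997 and 949 when no spleen or thymus region was allowed within 1 kb and 10 kb, and 1023 when any base could lie within 1 kb. The share of liver-only regions at gene ends was 74.7% at 500 bp, 86.1% at 2 kb, 91.2% at 5 kb and 76.9% with protein-coding genes only, against 80.9%. In the upper 50% of liver scores 492 regions and 578 coding genes were left, and with the liver list shortened to the length of the thymus list 634 regions were left, while 82.0% and 82.8% of liver-only regions still lay at gene ends. The median score percentile stayed between 48.8 and 49.4 under the changes of distance, genes, absence and placing. Counting only the nearest start, 93.2% of promoters were CpG-rich, 24.8% held the NRF1 motif and 78.1% the GC box, and among CpG-rich promoters 79.6% held the GC box. The p53, ETS, CCAAT and TATA shares stayed within their intervals under both changes. Of 40 gene lists, the count moved by over 1.5 times in 5 at 500 bp, in 2 at 2 kb and in 25 in the upper 50% of scores, where fewer regions are counted.

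Leaving out each replicate could not be run, since the lists hold no values per library. No paired analysis was possible because each organ has a single list for all its libraries and no result comes from a test. Read depth is unknown, and absence from a list depends on the threshold and depth of that organ's call, which cannot be told apart here from absence of binding.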
